A study of Mus musculus with 9 samples.

Results

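MC38-LM3a is a derivative of the mouse colorectal cancer line MC38 that was selected for growth in the liver, and MC38-P is the parental population from which it was derived. The transcriptomes of both were compared in 6 of the 9 libraries of the series, 3 labelled MC38-LM3a and 3 labelled MC38-P, and the choice of these libraries used the labels alone. All cells carried a reporter of green fluorescent protein and luciferase, MC38-P included, and were grown in high-glucose DMEM. To obtain MC38-LM3a, cells were injected into the spleen of C57BL/6 mice, liver lesions were dissociated with collagenase, the cells were expanded in culture, and the cycle was run 3 times. No source describes either population as a single clone. MC38-P did not pass through mice, so selection in the liver, passage through an animal and the added culture time cannot be told apart. The replicates are described as biological, but nothing says whether they came from separate cultures, and the p-values measure the spread between these libraries. The question was which transcripts distinguish the liver-selected cells from the cells they came from.

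Tumor cells that arrive in the liver through the portal vein meet a dense population of resident macrophages, natural killer cells and T cells, together with a matrix and a nutrient supply unlike those of the colon. Class I molecules display peptides from inside the cell to CD8+ T cells and also engage inhibitory receptors on natural killer cells, and their genes are induced together with the immunoproteasome and the peptide transporter by interferons. Collagens, thrombospondins and fibronectin form the matrix to which tumor cells attach, and cholesterol synthesis is switched on as a group by SREBP2 when sterols run short.

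The labels describe an epithelial colon cancer, and only a part of that identity was seen in the transcripts. Keratins were abundant, as Krt8 was 1047, 1129 and 1206 TPM in MC38-P and 823, 851 and 744 TPM in MC38-LM3a, whereas Cdh1 and Cldn7 stayed under 1 TPM in all 6 libraries and so did 4 of the 6 measured colon epithelium genes (Cdx1, Vil1, Muc2 and Lgals4). The summed level of the 6 epithelial markers was 2000 to 2315 TPM in MC38-P and 1589 to 1809 TPM in MC38-LM3a. Every measured marker of hepatocytes, T cells, B cells, leukocytes at large and red cells was under 1 TPM in every library. Measured were 5 of 8 chosen markers of hepatocytes, 2 of 7 of T cells, 2 of 5 of B cells, 4 of 5 of leukocytes at large and 3 of 5 of red cells. Of 5 natural killer cell markers, 0 were measured. Of the macrophage genes, 3 of 9 were measured. Csf1r and Lyz2 were under 1 TPM and Cd68, a lysosomal protein, was 29.1, 27.7 and 29.5 TPM in MC38-P and 34, 34.8 and 40.9 TPM in MC38-LM3a. The summed level of the 4 measured neutrophil genes was 4.13 to 7.68 TPM in MC38-P and 3.18 to 4.98 TPM in MC38-LM3a, mostly from Ly6g, with Csf3r and Mpo under 1 TPM. The 5 measured cholangiocyte genes summed to 230 to 274 TPM and 180 to 214 TPM, mostly from Spp1, the secreted protein osteopontin, with Krt7, Cftr and Sctr under 1 TPM. The 5 measured endothelial genes summed to 1.18 to 1.65 TPM and 0.70 to 1.38 TPM, and only Cdh5 exceeded 1 TPM in any library. The part of such cells in the results was not tested. Within each group, replicate 3 stood apart. The difference of P replicate 3 from the other MC38-P libraries fell with transcript length (Spearman rho -0.656 across 10989 genes), and that of LM3a replicate 3 from the other MC38-LM3a libraries rose with it (rho 0.68). Across genes, which are not independent replicates, the group difference had a rho of -0.115 with length. The part of these deviations in the single results was not tested, and counts obtained without replicate 3 are given beside many, though not all, of the gene lists.

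Of 16399 genes listed, 11096 reached 1 TPM (transcripts per 1000000) in 3 or more of the 6 libraries and were tested with limma on log2(TPM + 1). At a Benjamini-Hochberg adjusted p under 0.05, 1025 genes (9.24%) rose in MC38-LM3a and 1076 (9.7%) fell. Differentially expressed genes (DEGs) also had to change by more than 1 on the log2 scale, which left 321 genes (2.89%), 154 higher (1.39%) and 167 lower (1.51%). The changes reached further among rises, as 11 DEGs rose by more than 3 and 5 fell by more than 3 on the log2 scale. Most DEGs were of low abundance: the median of the mean TPM was 2.4 in MC38-P and 10.2 in MC38-LM3a for genes that rose, and 8.64 and 2.4 for those that fell. All 321 DEGs kept their direction in each of the 18 other fits that tested them.

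**Figure D1:**
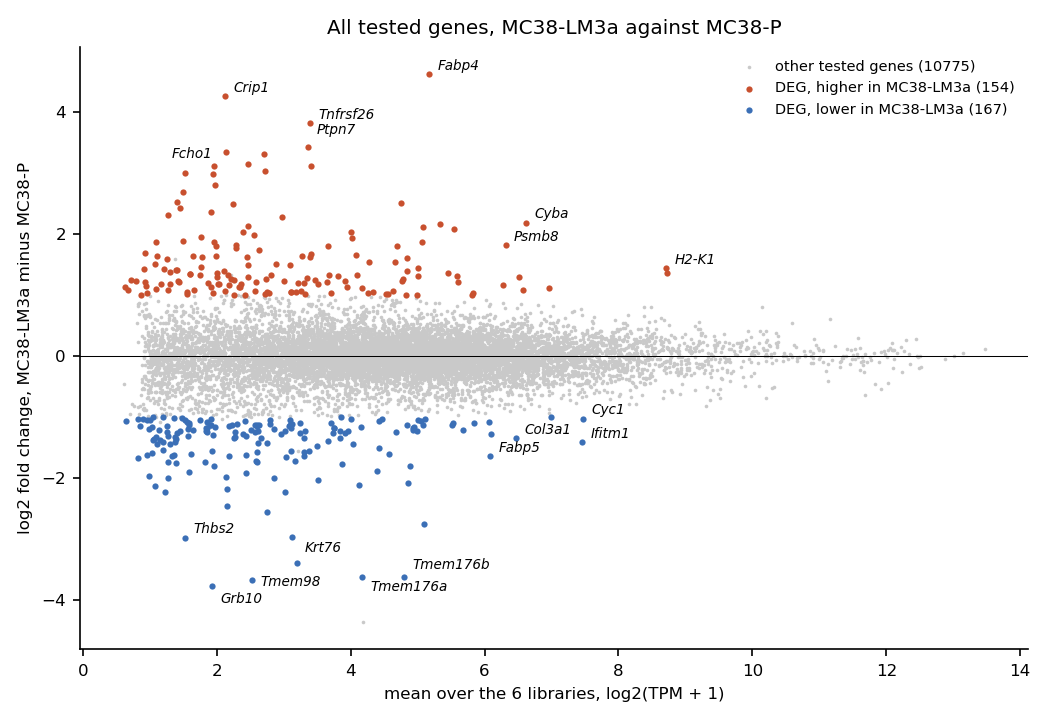
Change of each of the 11096 tested genes. The x axis is the mean over the 6 libraries in log2(TPM + 1), the y axis the log2 fold change of MC38-LM3a minus MC38-P, and colored points are the 154 higher and 167 lower DEGs. Fabp4 stands highest at 4.62 and Grb10 lowest among the DEGs at -3.77. The grey point at -4.35 is Cd99, which did not pass the test.

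On the log2(TPM + 1) scale, which compresses genes near 0 such as Ly9 and Crip1, the largest rise was that of Fabp4 (NCBI Gene 11770, chromosome 3), which encodes the fatty acid carrier typical of adipocytes and macrophages. Fabp4 was 4.64, 7.76 and 6.71 TPM in MC38-P and 182, 193 and 159 TPM in MC38-LM3a (log2 fold change 4.62, SE 0.166, adjusted p = 3.98e-06), a ratio of the mean TPM of 27.9. Crip1 (NCBI Gene 12925, chromosome 12), a small LIM-domain protein first described in the intestine, was listed at 0 in all 3 MC38-P libraries and was 20.1, 19.4 and 15.4 TPM in MC38-LM3a (adjusted p = 3.52e-06). Tnfrsf26, a TNF receptor-like surface protein, was 2.04, 2.34 and 1.15 TPM in MC38-P and 33.8, 35.8 and 47.3 TPM in MC38-LM3a (log2 fold change 3.82, SE 0.202, adjusted p = 1.36e-05). None of these genes overlapped between the groups, which holds for 20.2% of all tested genes on the higher side and 16.1% on the lower side.

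Among the next rises, Ptpn7, a hematopoietic tyrosine phosphatase that acts on ERK, was 2.39, 2.41 and 1.67 TPM in MC38-P and 32.1, 32 and 34.5 TPM in MC38-LM3a (log2 fold change 3.43). Fcho1, which helps to start clathrin-coated pits, was 0.51, 0.26 and 0.36 TPM in MC38-P and 12.4, 11.7 and 14.9 TPM in MC38-LM3a (log2 fold change 3.35), and the adaptor Grap, a relative of GRB2, was 2.07, 2.96 and 2.84 TPM in MC38-P and 30.9, 30 and 30 TPM in MC38-LM3a (log2 fold change 3.12). In each of these genes the lowest MC38-LM3a library was far above the highest MC38-P library. Ctla2a, a protein related to the propeptide of cathepsin L, went from 0.96, 0.55 and 1.08 TPM to 17.8, 15.3 and 13.5 TPM (log2 fold change 3.15). Completing the 10 largest rises were As3mt, an arsenite methyltransferase, at 3.12, Serpinb6b, an intracellular protease inhibitor, at 3.03 on the log2 scale, and the transcript 1500009L16Rik, each with an adjusted p under 0.05 and no overlap between the groups.

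The largest fall was that of Grb10 (NCBI Gene 14783, chromosome 11), an imprinted adaptor that dampens signaling from the insulin and IGF1 receptors. Grb10 was 14.6, 14.8 and 10.2 TPM in MC38-P and 0.04, 0.02 and 0.02 TPM in MC38-LM3a (log2 fold change -3.77, SE 0.163, adjusted p = 5.03e-06), so that it was nearly absent from the derivative. Tmem98 was 21.4, 18.8 and 18.4 TPM in MC38-P and 0.81, 0.51 and 0.54 TPM in MC38-LM3a (log2 fold change -3.66). Tmem176b and Tmem176a, neighbouring genes for membrane proteins of the endolysosomal system, fell together. Tmem176b was 96.2, 93.1 and 100 TPM in MC38-P and 7.57, 6.19 and 7.04 TPM in MC38-LM3a, and Tmem176a was 57.7, 62.1 and 66 TPM in MC38-P and 3.95, 4.99 and 3.57 TPM in MC38-LM3a, with log2 fold changes of -3.62 and -3.61. Their starts face away from each other, and the 108 bases between them, which lie before both genes, are printed on the strand of Tmem176a (chr6:48841375-48841482, RefSeq on GRCm38.p6).
Tmem176b to Tmem176a: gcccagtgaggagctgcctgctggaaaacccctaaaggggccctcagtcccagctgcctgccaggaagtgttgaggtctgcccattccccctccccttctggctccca

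The keratin gene Krt76 was 28.3, 26.4 and 31.1 TPM in MC38-P and 2.05, 1.93 and 1.54 TPM in MC38-LM3a. Thbs2, a matrix glycoprotein, was 8.3, 8.2 and 5.18 TPM in MC38-P and 0.01, 0.03 and 0.05 TPM in MC38-LM3a, and Ephb2, a receptor for ephrin-B ligands that orders cells along the intestinal crypt, was 25.3, 25.3 and 20.1 TPM in MC38-P and 2.1, 2.3 and 1.99 TPM in MC38-LM3a. All 3 were separated completely between the groups, with log2 fold changes of -3.38, -2.97 and -2.96. Padi4, which converts arginine to citrulline in proteins including histones, was 92.3, 92.6 and 79.9 TPM in MC38-P and 11, 12.2 and 13.8 TPM in MC38-LM3a. Col6a1, a chain of collagen VI, and Nrep closed the list of the 10 largest falls at -2.56 and -2.46 (adjusted p = 1.53e-04 and 7.39e-05).

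**Figure D2:**
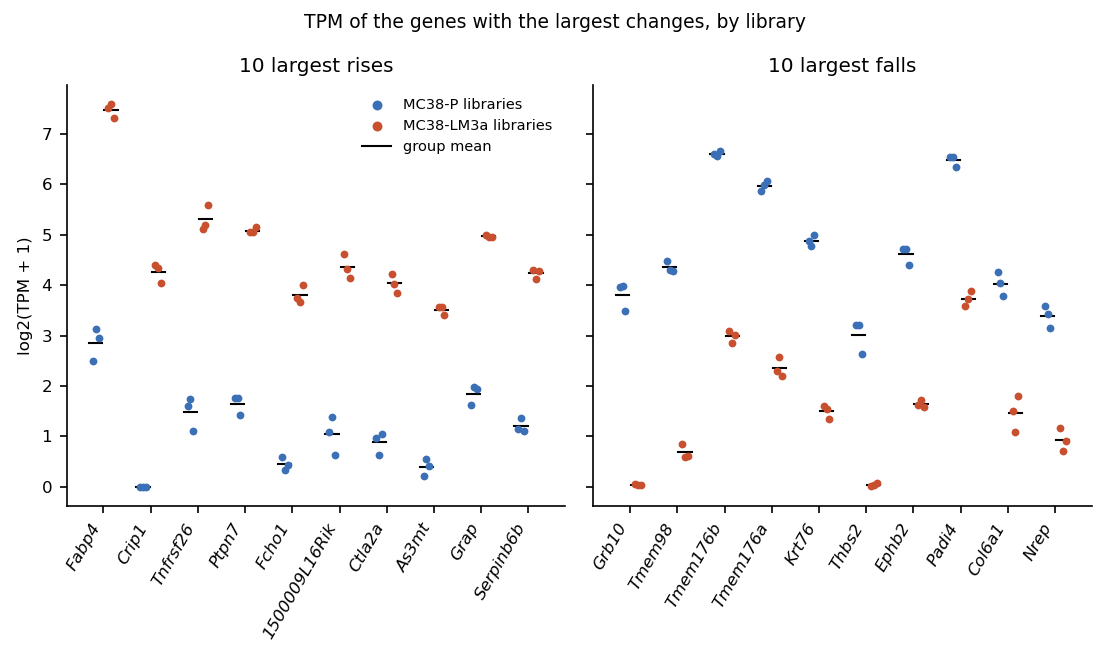
TPM by library of the 10 genes with the largest rise and the 10 with the largest fall, on a log2(TPM + 1) axis. Each point is a library (blue for MC38-P, orange for MC38-LM3a) and each bar the mean of 3 libraries. In all 20 genes the libraries of the groups do not overlap.

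Among DEGs with a mean of at least 100 TPM in a group, 9 rose and 6 fell. Next to Fabp4, the largest rises were those of Cyba, Psmb8, H2-K1 and H2-D1. Cyba, the membrane subunit p22phox of the NADPH oxidase, was 37.7, 43.8 and 55.5 TPM in MC38-P and 215, 247 and 171 TPM in MC38-LM3a (log2 fold change 2.19, SE 0.167, adjusted p = 1.06e-04). The largest falls were those of Fabp5, Ifitm1, Col3a1, Slpi and Cyc1. Slpi, a secreted inhibitor of neutrophil elastase, was 94.7, 105 and 118 TPM in MC38-P and 43.6, 50.2 and 36.8 TPM in MC38-LM3a (log2 fold change -1.27, SE 0.13, adjusted p = 4.70e-04). Cyc1, the cytochrome c1 of respiratory complex III, was 252, 245 and 258 TPM in MC38-P and 129, 126 and 116 TPM in MC38-LM3a and is encoded on chromosome 15.

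Besides Crip1, only Sncg and Asdurf were DEGs listed at 0 in all libraries of a group. Sncg, gamma-synuclein, was 2.27, 1.93 and 2.29 TPM in MC38-P and listed at 0 throughout MC38-LM3a. Asdurf was 4.62, 3.49 and 1.35 TPM in MC38-P and likewise listed at 0. Asdurf is read from the transcript that also encodes Asnsd1, so its reads could have been divided between both entries. Conversely, 7 genes differed by more than 1 on the log2 scale without passing the test. The largest of these, Cd99, which was singled out after its values were seen, was 52.6, 163 and 61.7 TPM in MC38-P and 0, 63.4 and 0 TPM in MC38-LM3a (log2 fold change -4.35, adjusted p = 0.0668), with 2 MC38-LM3a libraries at 0 and the other within the range of the parental cells.

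Genes of class I antigen presentation rose together. Of 20 tested members of the list, 16 rose, none fell and 4 (Tapbp, Tapbpl, Erap1 and H2-T24) did not pass, against 9.24% of all tested genes that rose. The list had a median log2 fold change of 0.88, where that of all tested genes was 0.00, and 9 of its members were DEGs. Without single libraries, 15 or 16 members rose, and without replicate 3 and with offsets for GC content and length 18 did. These and the other gene lists were written with earlier results of these data known, so their counts are a description. Each list count below is to be read against 9.24% of all tested genes higher and 9.7% lower, and each count without replicate 3 and with offsets against 27.9% higher and 26.2% lower in that fit.

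The classical class I heavy chains were already abundant in MC38-P and rose further. H2-K1 was 255, 253 and 254 TPM in MC38-P and 702, 672 and 702 TPM in MC38-LM3a (log2 fold change 1.44, SE 0.0608, adjusted p = 5.03e-06). H2-D1 was 280.0, 249.9 and 255 TPM in MC38-P and 672, 653 and 700.5 TPM in MC38-LM3a (log2 fold change 1.37, SE 0.0712, adjusted p = 1.27e-05). The libraries within a group lay close to each other in both genes, and the groups were far apart. B2m, the light chain that all class I molecules share, was 900.2, 808 and 838 TPM in MC38-P against 1461, 1396 and 1625 TPM in MC38-LM3a (log2 fold change 0.81). Of the nonclassical members, H2-Q4 was 24, 22.2 and 18.7 TPM in MC38-P and 91.2, 89.5 and 104 TPM in MC38-LM3a (log2 fold change 2.08), H2-T22 rose by 1.00, H2-M3 by 0.89 and H2-T23 by 0.87 on the log2 scale. Class I genes are close copies of each other, and how the authors' counting divided shared reads is not given in the sources used here, so the split among H2-K1, H2-D1 and the H2-Q and H2-T genes is uncertain.

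All 3 inducible proteasome subunits rose. Psmb8 was 43.5, 36.9 and 43.9 TPM in MC38-P and 159.6, 149.9 and 137 TPM in MC38-LM3a (log2 fold change 1.82, SE 0.0999, adjusted p = 1.64e-05). Psmb9 was 4.4, 8.52 and 8.7 TPM in MC38-P and 31.3, 33.2 and 29.9 TPM in MC38-LM3a (log2 fold change 2.03, SE 0.22, adjusted p = 6.13e-04), and Psmb10 rose by 0.70 on the log2 scale. Psme1 and Psme2, the chains of the proteasome activator PA28, rose by 0.55 and 0.57. The transporter that carries peptides into the endoplasmic reticulum rose in both chains, as Tap1 was 8.81, 7.59 and 7.15 TPM in MC38-P against 20.9, 20.1 and 22.4 TPM in MC38-LM3a and Tap2 was 19.5, 19.1 and 16.8 TPM in MC38-P against 52, 48.7 and 54.6 TPM in MC38-LM3a. Nlrc5, the transactivator of class I genes, was 4.16, 3.41 and 2.63 TPM in MC38-P and 9.87, 9.41 and 15.9 TPM in MC38-LM3a (log2 fold change 1.51, SE 0.219, adjusted p = 0.0025), with LM3a replicate 3 above the other libraries. Tapbp, the tapasin chaperone, had a log2 fold change of 0.21 and did not pass (adjusted p = 0.184).

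Promoters of these genes are shown because the members rose together and several of them lie side by side. Sequences are from the RefSeq promoter table on GRCm38.p6, which holds 8950 of the tested genes and covers 250 bases before to 50 after each start. Psmb9 and Tap1 face away from each other, so a stretch of 225 bases between their starts is upstream of both. It is written on the strand of Tap1 (chr17:34187331-34187555).
Psmb9 to Tap1: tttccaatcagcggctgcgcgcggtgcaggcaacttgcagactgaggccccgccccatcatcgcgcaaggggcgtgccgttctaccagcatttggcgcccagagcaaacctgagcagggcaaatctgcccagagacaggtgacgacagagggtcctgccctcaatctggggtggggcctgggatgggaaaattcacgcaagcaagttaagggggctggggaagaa

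Motifs were searched as letters on both strands: GAAA, 2 free bases and GAAA for the interferon-stimulated response element (ISRE), TTCNNNGAA for the gamma-activated site (GAS), GGGA, 2 free bases and TTCC for NF-kB, and TGTGGT for RUNX. None of the 4 is found in this stretch or in that between Tmem176b and Tmem176a, which says only that these letters are not in these windows. The promoters of H2-K1 (chr17:34000466-34000556, minus strand), H2-D1 (chr17:35262844-35262915, plus strand) and H2-Q4 (chr17:35379367-35379451, plus strand) are shown for the longest run that all 3 share before the start. This run of 21 bases is in capitals and begins at positions -174, -234 and -221 from the listed starts, respectively.
H2-K1: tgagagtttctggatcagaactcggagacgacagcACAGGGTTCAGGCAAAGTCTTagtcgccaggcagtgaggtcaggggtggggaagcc
H2-D1: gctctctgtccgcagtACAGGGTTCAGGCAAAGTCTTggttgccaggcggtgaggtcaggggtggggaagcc
H2-Q4: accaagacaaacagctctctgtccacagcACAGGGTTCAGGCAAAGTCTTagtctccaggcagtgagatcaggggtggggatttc

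Interferon-stimulated genes rose more often than they fell. Of 39 tested members, 23 rose, against 9.24% of all tested genes, 2 fell and 14 did not pass, and the median log2 fold change was 0.57. The number that rose was 12 without P replicate 2 and without LM3a replicate 1, 15 without LM3a replicate 2, and 29 without replicate 3 and with offsets. Only 1 member fell without P replicate 1 or 2 or LM3a replicate 1 or 2. The largest rises were in antiviral genes of low abundance. Oas1a, an oligoadenylate synthetase that activates RNase L, was 0.85, 1.18 and 1.38 TPM in MC38-P and 6.04, 6.27 and 7.08 TPM in MC38-LM3a (log2 fold change 1.81, SE 0.147, adjusted p = 1.53e-04). Samd9l was 1.12, 0.79 and 0.46 TPM in MC38-P and 3.73, 4.15 and 5.85 TPM in MC38-LM3a, and the RNA sensor Ifih1 (MDA5) was 3.74, 3.76 and 2.84 TPM in MC38-P and 9.41, 9.24 and 11.8 TPM in MC38-LM3a. These 3 genes did not overlap between the groups. At higher abundance, the mitochondrial protein Ifi27 was 59.5, 55 and 58.2 TPM in MC38-P and 156, 146 and 128 TPM in MC38-LM3a (log2 fold change 1.30, SE 0.0935, adjusted p = 8.09e-05).

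Most tested genes of the guanylate-binding and immunity-related GTPases also rose, with log2 fold changes of 1.13 for Gbp7, 0.99 for Gbp2, 1.27 for Ifi47, 0.97 for Igtp, 0.92 for Irgm2 and 0.75 for Irgm1. Gbp3 (0.40) did not pass. Of the transcription factors, Irf7 rose by 0.72 on the log2 scale, while Irf9 (0.30, adjusted p = 0.234), Stat2 (0.48, adjusted p = 0.192) and Irf1 (0.18, adjusted p = 0.249) did not pass. Isg15, a ubiquitin-like modifier, was 13.3, 9.06 and 11.2 TPM in MC38-P against 20.7, 24.4 and 15.8 TPM in MC38-LM3a (adjusted p = 0.0203). Against the direction of the list, Ifitm1 and Ifitm3, membrane proteins that block viral fusion, fell. Ifitm1 was 296, 284 and 276 TPM in MC38-P and 117, 93.2 and 111 TPM in MC38-LM3a (log2 fold change -1.41, SE 0.095, adjusted p = 5.73e-05), and Ifitm3 was 608, 631 and 566 TPM in MC38-P and 524, 450.0 and 494 TPM in MC38-LM3a (log2 fold change -0.30, adjusted p = 0.0328).

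**Figure D3:**
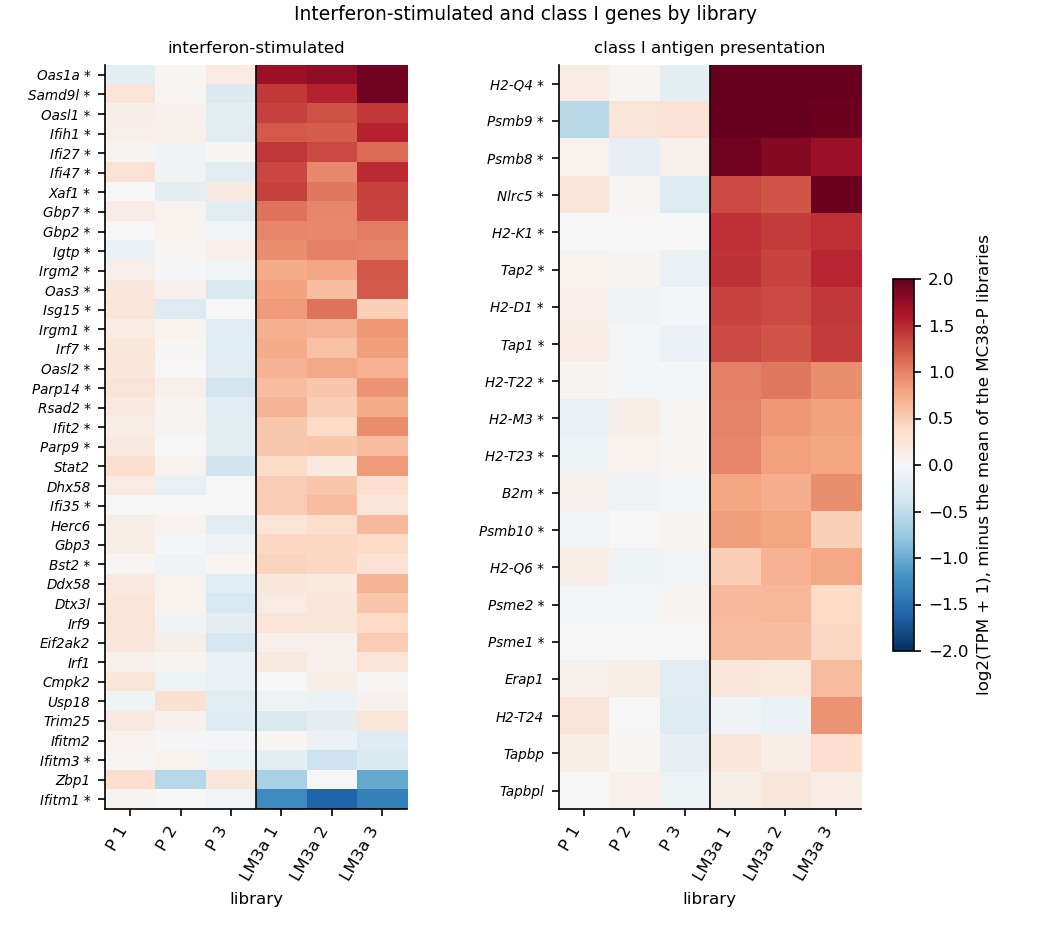
Values by library of tested interferon-stimulated genes (left, 1 of the 39 not shown) and the 20 tested class I genes (right). Each cell is log2(TPM + 1) minus the mean of the 3 MC38-P libraries, the color scale ends at 2 in both directions, and an asterisk marks an adjusted p under 0.05. The 3 MC38-LM3a columns are red in most rows, and Ifitm1 is blue in all 3.

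Oas1a illustrates the letters found in these promoters. The 120 bases before its start (chr5:120907526-120907645, minus strand) end with a run in capitals that holds 2 ISRE matches, beginning at positions -20 and -14 and sharing 4 bases.
Oas1a: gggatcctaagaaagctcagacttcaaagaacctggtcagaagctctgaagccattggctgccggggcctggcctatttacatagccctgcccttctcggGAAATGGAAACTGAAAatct

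The ISRE letters, searched on both strands in the whole window, were found in 11 of the 19 interferon-stimulated genes that rose and have a promoter in the table (57.9%), among them Ifih1, Gbp2, Gbp7, Isg15, Rsad2 and Oas3. They were in 4 of 14 class I genes that rose (28.6%; B2m, H2-T22, H2-T23 and Psme1), in 9.82% of the 112 DEGs that rose, in 5.17% of the 116 that fell, and in 3.58% of all tested genes with a promoter. The GAS letters were in 7 of the 19 interferon-stimulated genes that rose (36.8%), in 14.3% of the class I genes that rose, in 8.93% of the DEGs that rose and in 8.23% of all, and may overlap an ISRE match. The RUNX letters TGTGGT were in 16.1% of the DEGs that rose, 13.8% of those that fell and 14.4% of all, and Fcho1 and Ulbp1 hold them. The NF-kB letters were in 1.79% and 0.862% of the DEGs that rose and fell and in 1.7% of all. Both lists were chosen by function, and matches among their members that did not rise were not counted. Their shares therefore do not set members that rose apart from the other members. A match is a description of the sequence and does not show binding.

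Ly9 (NCBI Gene 17085, chromosome 1), which encodes SLAMF3, a self-binding receptor of the signaling lymphocyte activation family found on T, B and natural killer cells, was close to 0 in the parental cells and clearly present in the derivative. Ly9 was 0.04, 0 and 0 TPM in MC38-P and 6.92, 6.5 and 8.16 TPM in MC38-LM3a (log2 fold change 3.01, SE 0.133, adjusted p = 5.08e-06). Runx1, a hematopoietic transcription factor, was 10.3, 9.31 and 7.03 TPM in MC38-P and 8.49, 8.47 and 14.2 TPM in MC38-LM3a and did not pass (log2 fold change 0.18, adjusted p = 0.635). LM3a replicate 3 alone lay above the highest MC38-P library. Without replicate 3 the log2 fold change of Runx1 was -0.19 (adjusted p = 0.0979), but the median of all tested genes was -0.15 in that fit. Ikzf1, another lymphoid factor, was listed at 0 in all 6 libraries. Junb fell slightly, from 96.5, 97.2 and 86 TPM to 76.3, 74.5 and 78.3 TPM (log2 fold change -0.28, adjusted p = 0.0444). Polr2a, the large subunit of RNA polymerase II, was 198, 183 and 129.9 TPM in MC38-P and 127, 128 and 212 TPM in MC38-LM3a and overlapped between the groups (adjusted p = 0.706). In Polr2a the libraries of replicate 3 ran against the others, and without them, with offsets for GC content and length, the log2 fold change was -0.21 with an adjusted p of 0.00462.

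Hematopoietic signaling genes moved both ways. Of 12 tested members, 4 rose (Ptpn7, Ly9, Lat2 and Arhgdib) and 3 fell, and the median log2 fold change was 0.09. Plcg2, the phospholipase behind B-cell and Fc receptors, was 16.3, 18.1 and 14.8 TPM in MC38-P and 4.5, 4.16 and 5.19 TPM in MC38-LM3a (log2 fold change -1.63, SE 0.139, adjusted p = 1.95e-04). Nckap1l (HEM1), a subunit of the actin-regulating WAVE complex, and Ptpn6 (SHP-1), a phosphatase that restrains immune receptors, fell too, with log2 fold changes of -1.27 and -0.76. The 4 measured genes shared by leukocytes at large were near 0: Ptprc (CD45) was at most 0.09 TPM and Coro1a at most 0.22 TPM in the 6 libraries, and their summed level was 0.11 to 0.33 TPM in MC38-P and 0.19 to 0.43 TPM in MC38-LM3a.

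In the list of checkpoint and phagocytosis signals, 8 of 25 tested members rose (32.0%, against 9.24% of all tested genes) and 2 fell (median 0.21). Without replicate 3 and with offsets, 14 rose and 4 fell. Ulbp1, a ligand of the activating receptor NKG2D, was 17.4, 19.4 and 10.6 TPM in MC38-P and 57.5, 65.6 and 89.8 TPM in MC38-LM3a (log2 fold change 2.12, SE 0.232, adjusted p = 6.55e-04), and the related ligands Raet1d and Raet1e rose by 0.77 and 0.67 on the log2 scale, with reads possibly divided between these close copies. Cd274 (PD-L1), a ligand that inhibits T cells, was 2.24, 1.65 and 1.27 TPM in MC38-P and 4.2, 3.41 and 6.25 TPM in MC38-LM3a (log2 fold change 1.03, SE 0.214, adjusted p = 0.0117). Nt5e (CD73), which makes extracellular adenosine, was 9.11, 8.03 and 6.36 TPM in MC38-P and 1.17, 0.88 and 1.66 TPM in MC38-LM3a (log2 fold change -1.98, SE 0.181, adjusted p = 2.69e-04), and Cd24a, a signal against phagocytosis, was 18.9, 17.3 and 16.2 TPM in MC38-P and 8.23, 8.62 and 9.79 TPM in MC38-LM3a (log2 fold change -0.90). Cd47, another such signal, had a log2 fold change of 0.16 and did not pass (adjusted p = 0.273).

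Of 20 tested chemokines and cytokines, 7 rose and 2 fell. Without LM3a replicate 1, 4 rose, and without P replicate 1 or 2 or LM3a replicate 1 or 2 neither fall passed. Il15, under 1 TPM in MC38-P, missed the filter and was not tested when any MC38-LM3a library was left out. The rises included Cxcl16, a membrane-bound chemokine for CXCR6-bearing T cells, at 1.76, 2.04 and 1.21 TPM in MC38-P and 5.26, 5.14 and 7.74 TPM in MC38-LM3a, and Il15, which sustains natural killer and memory T cells, at 0.77, 0.73 and 0.74 TPM in MC38-P and 3.06, 2.69 and 3.69 TPM in MC38-LM3a. Their log2 fold changes were 1.39 and 1.24. Cxcl1 (0.82), Il18 (0.77), Il34 (0.67), Il33 (0.66) and Ccl2 (0.56) also rose, whereas Il11 (-0.59) and Spp1 (-0.41) fell. Of 22 tested NF-kB factors and targets, 3 rose and 2 fell (1 without P replicate 1 or 2 or LM3a replicate 1 or 2, and 4 without LM3a replicate 3), and the adhesion molecule Vcam1 was 9.27, 9.14 and 7.95 TPM in MC38-P and 21.9, 21 and 23.5 TPM in MC38-LM3a (log2 fold change 1.24). Of 21 tested members of the TNF receptor list, Tnfrsf26 and Tnfrsf14 (HVEM, log2 fold change 0.93) rose and Tnfrsf4 (OX40) fell (-0.70), a fall not called without P replicate 1 or LM3a replicate 1, whereas 11 rose and 2 fell without replicate 3 and with offsets. The decoy receptors Tnfrsf22 and Tnfrsf23, which lie beside Tnfrsf26 on chromosome 7, had log2 fold changes of -0.19 and 0.22 and did not pass.

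Lipid genes showed a change of fatty acid carriers and lower levels of sterol synthesis. While Fabp4 rose, its relative Fabp5, also on chromosome 3, was 105, 119 and 130.3 TPM in MC38-P and 35.6, 39.4 and 37.5 TPM in MC38-LM3a (log2 fold change -1.63, SE 0.1, adjusted p = 3.21e-05). In the mean TPM, Fabp5 was 118 ± 12.6 (SD, n = 3) against 6.37 ± 1.59 for Fabp4 in MC38-P, and 37.5 ± 1.92 against 178 ± 17.5 in MC38-LM3a, so the order of these carriers in TPM, a scale per transcript length, was opposite in the derivative. Of the other fatty acid handling genes, Acadl, Plin2 and Plin3 rose by 0.25 to 0.45, and the triglyceride enzymes Dgat1 (-0.94), Dgat2 (-0.78) and Lipe (-0.79) fell. In all, 4 of 27 tested members rose and 4 fell, with a median of 0.03, and 2 to 4 rose and 2 to 6 fell when single libraries were left out, with the lowest counts without P replicate 2 or LM3a replicate 1 or 2. Without replicate 3, 4 rose and 11 fell, and with offsets as well 9 rose and 7 fell. Among all tested genes, too, many more fell than rose without replicate 3 alone, and their median was -0.15. The falls in these fits therefore do not set the list apart from all tested genes.

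In the cholesterol and fatty acid synthesis list, 17 of 31 tested members fell and none rose (median -0.46), against 9.7% of all tested genes that fell. The number that fell was 8 without P replicate 2, 9 without P replicate 1, LM3a replicate 1 or LM3a replicate 2, and 26 without replicate 3 and with offsets. Sqle, squalene epoxidase, was 194, 185 and 159 TPM in MC38-P and 87.8, 85.6 and 93 TPM in MC38-LM3a and fell by 1.00 on the log2 scale (SE 0.0914, adjusted p = 2.69e-04). Idi1, an isomerase of the mevalonate pathway, was 199, 167 and 143 TPM in MC38-P and 91.3, 84.4 and 99.1 TPM in MC38-LM3a, and Cyp51, a sterol demethylase, was 67.4, 60.6 and 53.6 TPM in MC38-P and 31.8, 29.5 and 36.4 TPM in MC38-LM3a. Each of these was lower in all MC38-LM3a libraries than in any of MC38-P. Hmgcs1 (-0.69), an early enzyme of the pathway, fell, as did the regulator Srebf2 (-0.63). Srebf1 (0.00), the regulator of fatty acid synthesis, did not pass, nor did Fasn (-0.56, adjusted p = 0.0552), whereas the fatty acid elongase Elovl6 (-0.66) and the desaturases Fads1 (-0.60) and Fads2 (-0.52) fell. Sqle and Srebf2 are on chromosome 15, and without the genes of that chromosome the list's median was -0.43.

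The matrix genes that moved were mostly lower. Of 48 tested members of the list, 16 fell and 4 rose, and all 9 of its DEGs fell. The number that fell was 8 without P replicate 1 or 2 and 10 without LM3a replicate 1 or 2, and 2 rose without P replicate 2 or LM3a replicate 1. Thbs2, under 1 TPM in MC38-LM3a, missed the filter and was not tested when any MC38-P library was left out. Next to Thbs2, the related Thbs3 was 7.21, 5.86 and 5.7 TPM in MC38-P and 0.9, 1.25 and 1.09 TPM in MC38-LM3a (log2 fold change -1.80). Fn1, fibronectin, was 63.8, 61.8 and 39.9 TPM in MC38-P and 13.7, 11.8 and 20.2 TPM in MC38-LM3a (log2 fold change -1.79, SE 0.228, adjusted p = 0.00134). Col3a1 was 154, 144 and 123 TPM in MC38-P and 51.5, 48.6 and 64.8 TPM in MC38-LM3a (log2 fold change -1.34, SE 0.129, adjusted p = 3.58e-04), Col1a1 was 15.6, 16 and 10.4 TPM in MC38-P and 3.66, 3.52 and 5.03 TPM in MC38-LM3a (log2 fold change -1.55), and the collagen VI chains Col6a1 and Col6a2 had log2 fold changes of -2.56 and -1.61. In Fn1 and Col1a1, LM3a replicate 3 was the highest and P replicate 3 the lowest library of its group, and the groups remained apart. The 4 that rose were P4ha3 (0.84), Loxl3 (0.76), Col8a1 (0.67) and Nid1 (0.63). The balance of the list moved with the offsets for GC content and length. With the offsets alone 16 members rose and 19 fell, and with both changes 17 rose and 18 fell. Without replicate 3 alone 4 rose and 25 fell, in a fit where many more of all tested genes fell than rose. Marker genes of stellate cells and fibroblasts include Col1a1 and Col3a1, and their summed level was 135 to 172 TPM in MC38-P and 54.1 to 72.7 TPM in MC38-LM3a, with Dcn, Des and Reln under 1 TPM in every library. The part of such cells in these falls was not tested.

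Among 30 tested matrix proteases and inhibitors, 7 rose and 3 fell. The rises were 3 without P replicate 2, 4 without P replicate 3 or LM3a replicate 1, and 16 with the offsets. Ctla2b, a neighbour and close copy of Ctla2a, rose as well, from 1.45, 1.69 and 1.63 TPM to 10.4, 8.2 and 6.3 TPM, and reads may be divided between the copies. Serpine2, an inhibitor of thrombin and urokinase, was 39.1, 36.2 and 31.2 TPM in MC38-P and 12.2, 10.8 and 12.3 TPM in MC38-LM3a (log2 fold change -1.51, SE 0.125, adjusted p = 1.74e-04), while Serpinb2, an intracellular urokinase inhibitor, rose by 1.26 on the log2 scale. The metalloproteases Mmp19 (-1.18) and Mmp10 (-0.93) fell. Of 12 integrins, Itgb2, the beta chain of leukocyte integrins, rose from 15.5, 14.1 and 14 TPM to 27.5, 28.2 and 33 TPM, Itga3 rose by 0.56 on the log2 scale and Itgb7 fell (-0.33). Only 1 integrin rose without P replicate 2, and no integrin fell without P replicate 1 or 2 or LM3a replicate 1 or 2.

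Epcam and the factors Cdx2, Elf3 and Grhl2 were lower in MC38-LM3a, in a list of 16 tested epithelial genes that moved both ways. Epcam was 6.05, 4.93 and 6.31 TPM in MC38-P and 1.93, 2.17 and 2.05 TPM in MC38-LM3a (log2 fold change -1.14, SE 0.139, adjusted p = 0.00104). The intestinal factor Cdx2 was 2.14, 2.86 and 1.8 TPM in MC38-P and 0.49, 0.48 and 0.92 TPM in MC38-LM3a, with all MC38-LM3a libraries under 1 TPM. Elf3 (-0.97) and Grhl2 (-0.96), factors that maintain epithelial genes, also fell, and in all 5 of 16 tested epithelial genes fell and 3 rose (Krt19, Krt20 and Pkp2), none of the rises passing without P replicate 2 or LM3a replicate 1. Of 7 tested keratins, Krt19 and Krt20 rose (neither without P replicate 1 or 2 or LM3a replicate 1 or 2), and the 3 that fell, Krt76, Krt80 (-0.66) and Krt8 (-0.48), are all encoded on chromosome 15. Of 19 tested mesenchymal genes, 4 rose and 3 fell: Snai2 rose by 0.87, Tpm2 by 0.78 and Vim by 0.30, and Fn1, Acta2 (-0.90) and S100a4 (-0.51) fell. The rises were 2 without P replicate 2, and with the offsets 9 rose and 3 fell. Twist1, Zeb1, Zeb2 and Cdh2 had log2 fold changes of 0.23, -0.03, 0.14 and 0.35 and did not pass. Of the S100 proteins and annexins, 9 of 19 rose (4 without LM3a replicate 1 and 5 without P replicate 1 or 2), among them the abundant S100a6 (1837, 1803 and 1890 TPM in MC38-P and 2957, 2990 and 2516 TPM in MC38-LM3a), and Anxa8 fell from 15.9, 16.9 and 16.9 TPM to 2.37, 2.91 and 3.06 TPM. Of the small LIM-domain proteins other than Crip1, 4 rose, by 0.40 to 0.68, and 4 fell, the largest falls being those of Pdlim4 (-1.30) and Csrp2 (-0.77). With Crip1 counted, the rises went from 5 to 2 without LM3a replicate 1 and to 3 without P replicate 1 or LM3a replicate 2, and the falls to 1 without any single MC38-P library and to 2 without LM3a replicate 1 or 2. When any MC38-LM3a library was left out, Crip1 missed the filter of 1 TPM in 3 libraries and was not tested.

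Growth factor receptors and their regulators moved at a few points. The insulin-like growth factor receptor Igf1r, the kinase that Grb10 restrains, was 8.19, 6.85 and 5.04 TPM in MC38-P and 14.1, 13.3 and 23 TPM in MC38-LM3a (log2 fold change 1.19, SE 0.232, adjusted p = 0.00905) and was the only rise among 37 tested receptor tyrosine kinases and ligands. Igf1r was highest in LM3a replicate 3 and lowest in P replicate 3, and the groups did not overlap. Besides Ephb2, 8 of these genes fell (5 in all without P replicate 2), including Pdgfc (-1.12), Ephb3 (-0.94) and the TAM receptor Tyro3 (-0.88). Without replicate 3 and with offsets, 12 rose and 14 fell.

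Imprinted genes, which are expressed from only the maternal or the paternal copy, included the largest fall. Of 11 tested members, Grb10 and Phlda2 fell, Peg3 and Slc38a4 rose, and 7 did not pass. The falls were 1 when any single MC38-P library was left out. Grb10, under 1 TPM in MC38-LM3a, then missed the filter of 1 TPM in 3 libraries and was not tested. Phlda2, a growth-restraining gene of the placenta, was 55.5, 60.4 and 59.1 TPM in MC38-P and 13.6, 12.3 and 13.4 TPM in MC38-LM3a (log2 fold change -2.07, SE 0.1, adjusted p = 7.26e-06). Peg3, a zinc finger protein, was 16.6, 15.2 and 10.4 TPM in MC38-P and 35.7, 35.8 and 58.8 TPM in MC38-LM3a (log2 fold change 1.55, SE 0.229, adjusted p = 0.00275). The amino acid transporter Slc38a4 was 1.87, 1.35 and 1.74 TPM in MC38-P and 7.39, 8.81 and 8.07 TPM in MC38-LM3a, and rose although it is on chromosome 15. None of these genes overlapped between the groups.

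In the cell cycle list, 12 of 46 tested members fell, against 9.7% of all tested genes, and 2 rose (median -0.14). The number that fell was 4 without P replicate 2, LM3a replicate 1 or LM3a replicate 2, 5 without P replicate 1, and 26 without replicate 3 and with offsets, where 8 rose. Only 1 rose when any single MC38-P library or LM3a replicate 2 was left out. Ccnd2, cyclin D2, was 14.5, 14.8 and 11.2 TPM in MC38-P and 2.48, 2.43 and 3.02 TPM in MC38-LM3a (log2 fold change -1.99, SE 0.154, adjusted p = 1.12e-04). The other falls were smaller, and 8 of them were in genes that license replication origins, with log2 fold changes of -0.62 for Cdt1, -0.47 for Cdc6 and -0.60 to -0.35 for Mcm2 to Mcm7, the 6 subunits of the MCM helicase. Mcm2, for example, was 164, 161 and 146 TPM in MC38-P and 102, 96.6 and 112 TPM in MC38-LM3a. The mitotic genes Mki67 (-0.05), Cdk1 (-0.01) and Top2a (-0.06) did not pass, and Ccnb2 rose by 0.41. Of the DNA methylation genes, 5 of 20 fell and none rose, led by Dnmt3b (-0.65) and Hells (-0.64). The number that fell was 1 without P replicate 1 or 2 or LM3a replicate 1 or 2, and 11 fell and 3 rose without replicate 3 and with offsets.

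Tcf7 (TCF1), a transcription factor at the end of the Wnt pathway, was 24.1, 22.9 and 19.2 TPM in MC38-P and 3.8, 4.25 and 6.06 TPM in MC38-LM3a (log2 fold change -2.03, SE 0.175, adjusted p = 2.08e-04). In that list 5 of 22 members fell and none rose, the others being Znrf3 (-0.89), Wnt7b (-0.88), Fzd3 (-0.69) and Wnt9a (-0.52). The falls were 2 without P replicate 2 and 3 without P replicate 1 or LM3a replicate 1 or 2, and 10 fell and 3 rose without replicate 3 and with offsets, where Fzd3 no longer passed (-0.32, adjusted p = 0.067). Ctnnb1 (beta-catenin) had a log2 fold change of -0.14 and did not pass. Of 37 TGF-beta and BMP genes, 5 fell, led by the target Tgfbi (-1.30) and the ligands Bmp6 (-1.09) and Bmp2 (-0.84), and Tgfbr2 (0.57) and Id3 (0.51) rose. The share called in either direction, 18.9%, was that of all tested genes, with 13.5% lower against 9.7% and 5.41% higher against 9.24%. The falls were 3 without P replicate 2 and 8 without LM3a replicate 3, and 1 gene rose without P replicate 2 or 3 or LM3a replicate 1 or 2. Without replicate 3 and with offsets, 8 of these genes rose and 13 fell. Among the 28 AP-1 and immediate early genes, Batf2 rose from 0.14, 0.09 and 0.15 TPM to 1.65, 1.32 and 2.08 TPM and Dusp6 by 0.43, and 6 fell, Batf3 the most (-0.98). Of the AP-1 list, 1 gene fell without P replicate 2, 2 without P replicate 1 or LM3a replicate 2, and 3 without LM3a replicate 1, while 13 fell and 3 rose without replicate 3 and with offsets. No AP-1 gene was called higher without LM3a replicate 1 or 2, and 1 was without any other single library. Batf2, under 1 TPM in MC38-P, missed the filter and was not tested when any MC38-LM3a library was left out.

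Among stress and degradation genes, rises outnumbered falls and were mostly under 1 on the log2 scale. Of 36 unfolded protein and integrated stress response genes, 13 rose and 5 fell. Without P replicate 2, 8 rose, and 2 fell without P replicate 1 or 2 or LM3a replicate 2. Most of those that rose serve folding or quality control in the endoplasmic reticulum. Sdf2l1 was 78, 82.2 and 92 TPM in MC38-P and 192, 180.2 and 179 TPM in MC38-LM3a (log2 fold change 1.12, SE 0.0846, adjusted p = 1.01e-04), and Dnajb9 (0.91), Edem1 (0.79), Pdia6 (0.56) and the regulator Xbp1 (0.55) followed. Atf4, a transcription factor of the integrated stress response, was 431, 404 and 374 TPM in MC38-P and 241, 228 and 229 TPM in MC38-LM3a and lies on chromosome 15, and the others that fell were Slc7a11 (-0.76), Atf5 (-0.36), Shmt2 (-0.28) and Psat1 (-0.22). All of these others are known Atf4 targets, as are Asns (-0.02), Trib3 (-0.10), Chac1 (-0.25) and Ddit3 (0.09), which did not pass. Of 45 lysosome and autophagy genes, 15 rose, by 0.29 to 0.63 on the log2 scale with Hexa at the top, and 29 rose without replicate 3 and with offsets but only 4 to 7 when any single MC38-P library or LM3a replicate 1 or 2 was left out, while Tmem176a, Tmem176b and the lysosomal regulator Tfeb (-0.68) fell.

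In the glutathione and antioxidant list, 9 of 44 tested genes rose and 4 fell (median 0.16). The rises were 5 without P replicate 2 or LM3a replicate 1, 14 without LM3a replicate 3, and 21 without replicate 3 and with offsets. The falls were 7 without LM3a replicate 3 and 10 without replicate 3 and with offsets. The transferase Gstm7 was 11.6, 9.38 and 7.6 TPM in MC38-P and 23.2, 23.6 and 18.9 TPM in MC38-LM3a (log2 fold change 1.13, SE 0.168, adjusted p = 0.00285), and its close copy Gstm4 rose by 0.87. The membrane transferase Mgst1 was 51.5, 45.5 and 43.5 TPM in MC38-P and 25.7, 20.4 and 20.1 TPM in MC38-LM3a (log2 fold change -1.06, SE 0.127, adjusted p = 9.68e-04). The cystine transporter Slc7a11, which feeds glutathione synthesis, was 43.4, 44.8 and 39.1 TPM in MC38-P and 23.2, 25.5 and 25.2 TPM in MC38-LM3a, and Gclc (-0.46, adjusted p = 0.0707) and Gclm (-0.22) did not pass. Metallothioneins Mt1 and Mt2 did not pass either (-0.16 and 0.14), and apart from As3mt only Slc39a1 (0.36) and Slc39a13 (0.58) rose among the 16 genes of that list, and Slc39a10 (-0.54) fell. That fall did not pass without P replicate 1 or 2 or LM3a replicate 1 or 2. Without replicate 3 and with offsets, 6 genes of the list rose and 4 fell. Of 29 p53 targets, 4 rose (Ccng1, Mdm2, Cdkn1a and Phlda3, by 0.30 to 0.67), a share of 13.8% near the 9.24% of all tested genes, and none fell. Of the p53 targets, 1 rose without P replicate 1 or 2 or LM3a replicate 2, while 12 rose and 4 fell without replicate 3 and with offsets. Bcl2 family members Bmf (-0.83) and Bok (-0.73) fell and Bak1 (0.27) rose, whereas without P replicate 1 or 2 or LM3a replicate 1 or 2 there was 1 fall and no rise.

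Glycolytic and hypoxia-response genes gave 5 rises and 3 falls among 27 (3 and 1 without P replicate 1 or 2 or LM3a replicate 1 or 2), with Bnip3 at 54.4, 46.2 and 47.2 TPM in MC38-P and 85, 89.1 and 89.7 TPM in MC38-LM3a and Ndrg1, on chromosome 15, at 41.3, 42.6 and 39.9 TPM in MC38-P and 16.6, 18.1 and 20.8 TPM in MC38-LM3a. Without replicate 3 and with offsets, 13 of these genes rose and 6 fell. The nuclear-encoded respiratory chain (56 genes) and the cytosolic ribosomal proteins (76 genes) had medians of 0.08 and 0.00. All 3 ribosomal protein genes that fell, Rpl8, Rpl30 and Rpl37, are on chromosome 15, as are 4 of the 5 respiratory genes that fell (Cyc1, Cox6c, Ndufb9 and Ndufa6, not Cycs). Of the respiratory genes, 2 fell without P replicate 2 or 3 or LM3a replicate 1 and 3 without P replicate 1 or LM3a replicate 2. The 1 that rose did not pass when any library but LM3a replicate 3 was left out, and 12 rose without that library. Without replicate 3 and with offsets, 22 respiratory genes rose and 7 fell, and 21 ribosomal protein genes rose and 5 fell, around medians of 0.10 and 0.07. For the ribosomal proteins this share of rises is at the 27.9% of all genes in that fit.

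**Figure D4:**
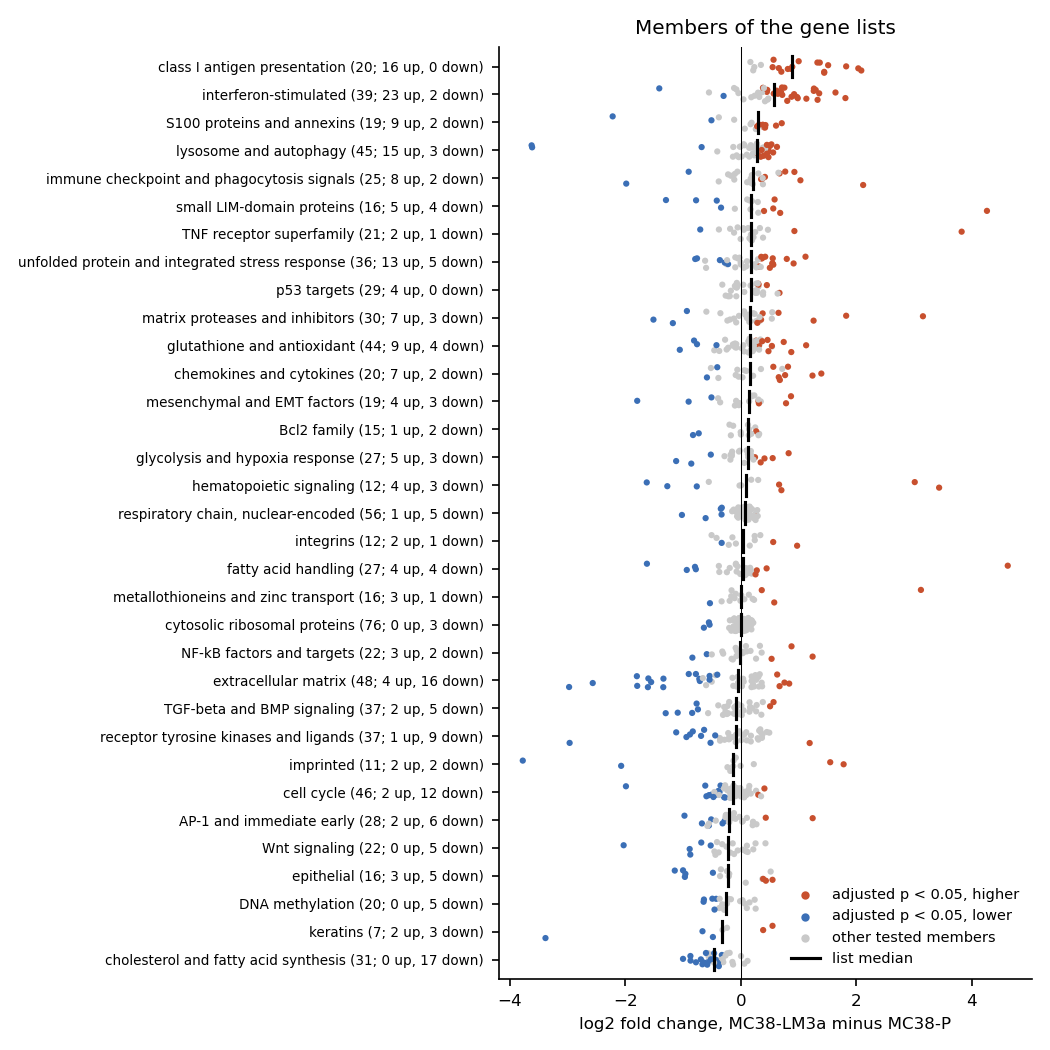
Log2 fold changes of the tested members of each gene list, ordered by the list's median (black bar). Points are genes, colored where the adjusted p was under 0.05, and the numbers behind each name give the tested members and those higher and lower. Class I genes (median 0.88) and interferon-stimulated genes (0.57) lie farthest to the right, and cholesterol and fatty acid synthesis (-0.46) farthest to the left.

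Genes of chromosome 15 were lower along its whole length. Of 458 tested genes there, 263 fell (57.4%) and 11 rose (2.4%), and 92.8% of them had a log2 fold change under 0. The median was -0.54, and in 11 consecutive windows of 40 neighbouring genes the medians ranged from -0.64 to -0.43. Against the mean of MC38-P, the chromosome's median was -0.58, -0.60 and -0.37 in LM3a replicates 1, 2 and 3. The chromosome holds 458 of all 11096 tested genes. Of the 167 DEGs that fell, 28 were on this chromosome, including Krt76, Ccn4, Fbln1, Ndrg1, Nckap1l, Cyc1 and Sqle. Of the 154 DEGs that rose, 6 were, including Slc38a4 and the adaptor Grap2, a share near that of all tested genes. Smaller falls in the lists above that lie there include Grhl2, Ccn3, Dgat1, Wnt7b, Atf4 and Srebf2. Chromosome 4 had a median of 0.10, with window medians of 0.03 to 0.26 and 107 of 694 genes higher (15.4%). Without replicate 3 its median was -0.06, where that of all tested genes was -0.15, and with offsets as well it was 0.11. The other chromosomes lay between -0.02 and 0.05. Genes were placed by the RefSeq annotation of GRCm38.p6, while the build in the submitters' processing notes is GRCm39, so only the chromosome and the order of neighbours were used.

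**Figure D5:**
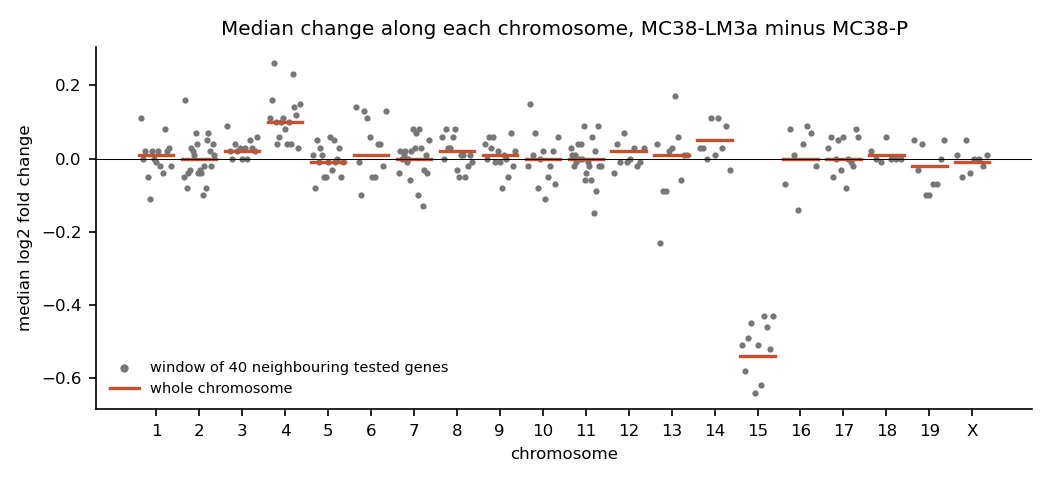
Median log2 fold change of MC38-LM3a minus MC38-P along each chromosome. Grey points are windows of 40 neighbouring tested genes in order and bars are whole chromosomes. All 11 windows of chromosome 15 lie under -0.4, and all windows of chromosome 4 are above 0 (without replicate 3 its median was -0.06, against -0.15 for all tested genes).

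MC38-LM3b, a derivative obtained independently by the same procedure, was used to ask which of the genes named here differ between the derivatives. In a model of all 9 libraries, 6 of 11287 genes (0.0532%) differed between MC38-LM3b and MC38-LM3a, and 3 of them are described above. Ly9 was 6.92, 6.5 and 8.16 TPM in MC38-LM3a and 17.9, 16.1 and 17.6 TPM in MC38-LM3b, Padi4 11, 12.2 and 13.8 TPM and 6.02, 5.46 and 6.56 TPM, and Ifitm1 117, 93.2 and 111 TPM and 67.8, 67.5 and 72.6 TPM, respectively. For the 10 largest rises and falls other than Padi4, the difference between the derivatives did not pass, with log2 differences from -0.79 for Crip1 to 0.58 for Tnfrsf26. Both derivatives are compared with the same MC38-P libraries.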

How the data were processed

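Poly(A) RNA of the parental cells and of both liver-selected derivatives, 3 libraries each, was sequenced on the DNBSEQ platform after extraction of total RNA with TRIzol. The deposited values are TPM with 2 decimals for 16399 genes, which the authors gave per library. They sum to 1000000 and keep no counts, so the depth behind each value is unknown, no counting error can be given, and count-based tests could not be run. The submitters' processing notes name HISAT and GRCm39. The quantification tool is not given in the sources used here.

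The 11096 genes that reached 1 TPM in 3 or more of the 6 libraries were tested on log2(TPM + 1) with limma 3.58.1 in R 4.3.3, with a trended variance prior and Benjamini-Hochberg adjustment over all of them. Fold changes are on this scale, which understates the change of low genes. DEGs had an adjusted p under 0.05 and a log2 fold change beyond 1 in either direction. On simulated data for this comparison with 11096 genes, 195 of 200 genes changed by 2 on the log2 scale were recovered with 1 false call. The simulated noise was independent between genes, unlike the deviations along transcript length in the real libraries. The simulation therefore does not give the rate of false calls in these data.

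Named were the 10 largest rises and falls among DEGs, the 5 largest of each among DEGs with a group mean of at least 100 TPM, the largest rise and fall of each list with further members by size or role, DEGs listed at 0 in a group, and Ly9, Ctla2a, Fcho1, Runx1, Junb, Polr2a and Ikzf1. The groups compared, the lists and this rule were chosen with earlier results of these data known. Alternatives changed the pseudocount, the filter, the normalization, the variance prior, the block and the libraries, or subtracted loess offsets (span 0.3) on GC content and transcript length from GENCODE M21, known for 99.0% of the tested genes. Promoters and gene order came from RefSeq GRCm38.p6. Summaries and figures were made in Python 3.11.15 with pandas 2.3.3 and matplotlib 3.10.9. Values of a few list members are not reported here, and the list counts include them.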

Additional observations from a re-analysis of the deposited data

Results flagged for a closer look

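The change against MC38-P differed between the derivatives for 3 named genes, by the test of MC38-LM3b minus MC38-LM3a in the model of all 9 libraries. Ly9 (SLAMF3) was higher in MC38-LM3b by 1.16 on the log2 scale (limma adjusted p = 0.00318), and in all 3 libraries. Padi4 differed by -0.92 (adjusted p = 0.0172) and Ifitm1 by -0.62 (adjusted p = 0.0346), each lower in all 3 MC38-LM3b libraries. With the offsets for GC content and length, an alternative added after the data were seen, the differences were 1.01 (adjusted p = 2.41e-04), -1.08 (2.09e-04) and -0.56 (0.0301), respectively.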

How the results depend on the processing

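Of 215 named genes that were tested, 122 kept their direction and their side of the threshold under each of the 18 alternatives that tested them, and none that passed reversed. The counts moved more. DEGs lower in MC38-LM3a went from 167 to 291 with a pseudocount of 0.1, to 102 with the 5 TPM filter, which tests fewer genes, and to 237 without replicate 3, while DEGs higher in MC38-LM3a went from 154 to 102 without replicate 3. For genes past the adjusted p, higher in MC38-LM3a, and genes past the adjusted p, lower in MC38-LM3a (1025 and 1076), the counts became 2681 and 2500 with GC content and length offsets, 1889 and 1875 with quantile normalization, 1663 and 1821 with median centring, and 1597 higher in the model of 9 libraries. Without replicate 3 they became 1828 and 4701, with the median of all genes moved to -0.15, and 3081 and 2898 with offsets and a filter of 1 TPM in 2 libraries, which was added after the data were seen. Without single libraries, DEGs ranged from 102 to 178 higher and 108 to 211 lower, with the lowest counts without LM3a replicate 3 (102 higher) and without P replicates 1 and 2 (108 and 110 lower), where the filter dropped 34 and 43 of the DEGs. Genes past the adjusted p ranged from 422 to 1058 higher and 388 to 1851 lower: 678 and 515 without P replicate 1, 422 and 388 without P replicate 2, 434 and 522 without LM3a replicate 1, 553 and 564 without LM3a replicate 2, and 1058 and 1851 without LM3a replicate 3. The cause of these shifts was not tested. With the replicate number as a block, 219 genes passed higher and 255 lower, and with the block and the offsets 1987 and 1899. Deviations of same-numbered libraries correlated at -0.359, -0.191 and -0.69. These values carry opposite trends with transcript length, so they cannot show whether same-numbered samples were paired. The labels give only the number. Under the block, 141 of the 154 DEGs that rose and 154 of the 167 that fell still passed. Of the list members, 15 class I genes and 10 interferon-stimulated genes passed higher, and 4 cholesterol and fatty acid synthesis genes, 3 cell cycle genes and 9 matrix genes passed lower under the block. The median of chromosome 4 was -0.06 without replicate 3. The unknown depth limits what can be said of genes near 1 TPM.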

Other observations

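The genes below were chosen after their values were seen and because they changed, so they say nothing of the pathways they belong to, whose other members were not counted. Casp1, the protease that matures IL-1beta and IL-18, was 7.92, 6.62 and 7.26 TPM in MC38-P and 30.1, 33.6 and 28.6 TPM in MC38-LM3a (log2 fold change 1.94, SE 0.125, adjusted p = 4.38e-05). Naip2 and Naip6, of the family that senses bacterial proteins, were 1.62, 1.25 and 0.94 TPM in MC38-P and 5.54, 5.91 and 6.65 TPM in MC38-LM3a and 0.09, 0.03 and 0.04 TPM in MC38-P and 2.11, 1.92 and 3.45 TPM in MC38-LM3a, respectively. Tlr5, the flagellin receptor, was 0.23, 0.2 and 0.21 TPM in MC38-P and 2.36, 2.39 and 3.79 TPM in MC38-LM3a, and Tlr6 and Nlrp3 rose by 1.59 and 1.21 on the log2 scale. NAIP genes are close copies of each other, so their split is uncertain. The nuclear body proteins Sp100 (1.63), Sp110 (1.46) and Sp140 (1.74) also rose. In the hematopoietic signaling list 4 of 12 genes rose and 3 fell, and single genes outside it that are known from blood cells rose, such as the kinase Fes at 0.28, 0.49 and 0.36 TPM in MC38-P and 9.87, 10.1 and 9.48 TPM in MC38-LM3a, the adaptor Grap2 at 0.11, 0.09 and 0.06 TPM in MC38-P and 4.27, 3.94 and 5.09 TPM in MC38-LM3a, and Arhgap9 at 0.48, 0.4 and 0.59 TPM in MC38-P and 8.85, 10.2 and 9.33 TPM in MC38-LM3a, with Gimap9 (2.69), Samsn1 (2.53) and Lpxn (2.28), while Ptprc stayed under 0.1 TPM.

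Gli2, a transcription factor of the Hedgehog pathway, was 6.56, 5.23 and 4.61 TPM in MC38-P and 0.8, 0.75 and 1.31 TPM in MC38-LM3a (log2 fold change -1.73, SE 0.172, adjusted p = 4.03e-04), Gli1 was 3.56, 3.51 and 2.59 TPM in MC38-P and 0.51, 0.57 and 0.85 TPM in MC38-LM3a, and the co-receptor Gas1 had a log2 fold change of -1.08. Plac1, known from the placenta, was 12.6, 11.8 and 14.5 TPM in MC38-P and 48.7, 42 and 52.2 TPM in MC38-LM3a, and the prolactin family members Prl2c2 and Prl2c3 rose by 1.42 and 1.20 on the log2 scale, the latter being near-identical copies whose reads may be shared. The transcription factor Sox2 was 3.26, 4.29 and 2.86 TPM in MC38-P and 0, 0.04 and 0 TPM in MC38-LM3a and the RNA-binding protein Igf2bp3 was 37.6, 38.1 and 30.7 TPM in MC38-P and 6.81, 6.86 and 8.61 TPM in MC38-LM3a. The secreted cytokine Il24 was 16.2, 20.1 and 18.1 TPM in MC38-P and 77.9, 79.5 and 95.5 TPM in MC38-LM3a (log2 fold change 2.16). These genes do not overlap between the groups.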
